A study of Mus musculus with 30 samples.

Results

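Trp53, the gene that encodes the transcription factor p53 in the mouse, and 9 genes that p53 is known to activate were followed in nuclear RNA of mouse embryonic stem cells upon loss of the chromatin remodeller SRCAP. The 10 genes were Trp53, Mdm2, Cdkn1a, Ccng1, Trp53inp1, Bbc3, Bax, Zmat3, Phlda3 and Sesn1, chosen by name from the 55401 genes of the count tables.

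p53 is made continuously and is kept low by Mdm2, a ubiquitin ligase that is itself a p53 target, so that the pair forms a negative feedback loop. When DNA damage or another stress frees p53 from Mdm2, p53 binds response elements near its targets and activates genes of cell cycle arrest, apoptosis, repair and metabolism. Much of this control acts on the protein, so the Trp53 transcript by itself is not a readout of p53 activity. Embryonic stem cells are known for abundant Trp53 transcript and for a weak arrest at the border of G1 and S phase.

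The study comprised 30 libraries in 15 groups of 2 replicates, counted in 4 separate tables. CGR8 is the parental line, left untreated or given the auxin indole-3-acetic acid (IAA) for 4 h. SYAT cells carry an auxin-inducible degron and the fluorescent protein YPet on both alleles of Srcap and express the plant F-box protein OsTir1, so that IAA at 500 µM degrades SRCAP. They derive from 1 homozygous clone into which OsTir1 was brought by a lentivirus under the EF1a promoter, followed by sorting of cells that lost YPet upon IAA. SYAT cells were collected without IAA, their controls being kept in the Tir1 inhibitor auxinole, or after 2, 4, 6 or 8 h of IAA. In a further table, SYAT cells that also expressed a mitotic degron fused to mCherry were stained with Hoechst and sorted into early G1 (EG1) and late G1 (LG1), with or without 1 h of IAA. In the last table, SYAT cells carried wild-type SRCAP (wtSRCAP) or a catalytically dead SRCAP (cdSRCAP) with mCherry, 1 clone of each. The protein was induced from a doxycycline promoter for 24 h. These cells were left in auxinole as controls or given IAA for 4 h, and were sorted for mCherry. All cells grew in serum with LIF.

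None of the 10 genes passed the thresholds in any of the 14 comparisons made with the exon counts by edgeR, and none did by DESeq2. With the replicate number as a block in edgeR, Bbc3 was called after IAA in both early and late G1, beside 6.04% and 4.2% of all genes. The block also called Bbc3 and Phlda3 in CGR8, beside 2.47%, where replicate numbers were taken as labels only. Among the 140 estimates, 6 had an unadjusted p under 0.05, where 0.699% to 16.1% of all genes had in the single comparisons. The 6 were Bbc3 and Phlda3 in CGR8, Bax and Phlda3 in SYAT after 6 h, and Sesn1 in the control clones of wtSRCAP and cdSRCAP and in the difference between their responses. A p that misses the threshold does not show that a level stayed the same, so the 95% interval of each change was set beside it. In the 12 comparisons of 2 conditions, 110 of the 120 intervals lay within a 2-fold change in either direction.

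The promoters of these genes were searched for letters that resemble the p53 response element close to the start. The consensus element is a pair of 10-base decamers, here searched with no spacer between them; it reads the same on both strands, and the best match in the 250 bases before each annotated start was kept. The RefSeq promoter table (GRCm38) held 12 starts for 8 of the 10 genes, and none for Trp53inp1 and Zmat3. Cdkn1a and Ccng1 came within 1 mismatch of the 20-base consensus, as did 25 of all 32851 promoters (0.0761%). Both windows are shown whole, 5′ to 3′ on the strand of the gene, with the 20 matching bases in capitals. The Cdkn1a window is chr17:29090729-29090978 on the plus strand and the Ccng1 window chr11:40755287-40755536 on the minus strand.
Cdkn1a: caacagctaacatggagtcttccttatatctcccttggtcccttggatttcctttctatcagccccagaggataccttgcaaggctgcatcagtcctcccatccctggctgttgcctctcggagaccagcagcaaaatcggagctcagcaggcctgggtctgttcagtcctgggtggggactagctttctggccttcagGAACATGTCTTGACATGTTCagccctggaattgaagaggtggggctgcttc
Ccng1: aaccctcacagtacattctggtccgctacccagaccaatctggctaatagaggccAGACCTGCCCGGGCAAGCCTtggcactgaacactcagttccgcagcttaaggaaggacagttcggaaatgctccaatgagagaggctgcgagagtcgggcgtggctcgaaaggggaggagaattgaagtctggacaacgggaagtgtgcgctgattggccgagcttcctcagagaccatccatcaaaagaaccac

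The Cdkn1a match lay at chr17:29090928-29090947, its first base 51 bases before the first annotated start. The window held 2 decamers with no mismatch, the first decamer of the match and another outside it. The mismatch lies in the second decamer of the match. The Ccng1 match lay at chr11:40755462-40755481, from 195 bases before the start. A further 4 of the 12 windows came within 3 mismatches, a distance that 5.32% of all promoters reached, and their best matches are given in capitals to show how far they stand from the pair above.
Trp53: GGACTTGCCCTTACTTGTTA
Bbc3: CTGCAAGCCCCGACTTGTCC
Bax: AGCATATCCCAGGCAAGCTT
Sesn1: AAGCTTGTTTTTGCTGGCCT

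They lay at chr11:69580284-69580303 (Trp53, plus strand), chr7:16309486-16309505 (Bbc3, plus strand), chr7:45467090-45467109 (Bax, minus strand) and chr10:41887266-41887285 (Sesn1, plus strand, at its second start). The best matches of Mdm2, of Phlda3 and of the second starts of Cdkn1a and Bbc3 had 5 mismatches. Those of the first Sesn1 start and the third Bbc3 start had 6 and 8. A match describes letters and is neither a binding site nor a cause, and a window without one says nothing about p53, since elements in introns and further upstream were not searched. The Bbc3 and Sesn1 windows and the second window of Cdkn1a fall inside the annotated gene bodies.

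The genes lie on 7 chromosomes of mm10 (GRCm38). Trp53 (ENSMUSG00000059552.13) is at chr11:69580359-69591873 and Mdm2 (ENSMUSG00000020184.15) at chr10:117688875-117710758. Cdkn1a (ENSMUSG00000023067.14) is at chr17:29090976-29100727, Ccng1 (ENSMUSG00000020326.7) at chr11:40748552-40755311 and Trp53inp1 (ENSMUSG00000028211.11) at chr4:11156431-11174379. Bbc3 (ENSMUSG00000002083.13) is at chr7:16308393-16318205 and Bax (ENSMUSG00000003873.11) at chr7:45461697-45466898. Zmat3 (ENSMUSG00000027663.12) is at chr3:32334792-32366014, Phlda3 (ENSMUSG00000041801.5) at chr1:135766119-135769136 and Sesn1 (ENSMUSG00000038332.13) at chr10:41809935-41908424. Cdkn1a overlaps an antisense gene, AC167363.2, and Bax and Sesn1 overlap Gm45808 and 9930024M15Rik. A processed pseudogene, Trp53-ps, is known for Trp53. The strand setting of the authors' counting is not given in the sources used here, so reads of these overlaps and of the pseudogene are uncertain.

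The exon columns summed to between 12236493 and 60214521 counts per library, CGR8 being the deepest table (at least 45617992). The lowest count of any of the 10 genes in any library was 102 (Sesn1). All 8 stem cell markers were present in every library, Pou5f1 at 342 to 871 CPM, here counts scaled to the library's total. Median Nanog was 315 CPM in CGR8, 77.1 in unsorted SYAT, 59.8 in sorted and 151 in wtSRCAP and cdSRCAP cells. In that order median Sox2 was 311, 303, 308 and 423 and Fgf5, of primed epiblast, 1.27, 24.9, 8.62 and 1.82. The summed level of 16 markers of other cell types was 74.4 to 246 CPM. Pecam1 was their highest by median in each table (64.5, 35.3, 112 and 67.3). The sum thus leans on 1 gene and does not measure how many other cells were present. A pair of libraries stood apart. Replicate 2 of SYAT at 6 h had 0.529% mitochondrial counts against 1.8 to 2.44% in the other SYAT libraries, and replicate 1 of wtSRCAP with IAA had 0.215% and 23.9% of its counts in 1 identifier. That identifier also held 16.4%, 17.3% and 12% in replicate 1 of wtSRCAP controls, cdSRCAP controls and cdSRCAP with IAA. In replicate 2 of the wtSRCAP and cdSRCAP groups it held 4.42% to 6.71%. Srcap RNA is no check of the depletion, since the degron removes the protein. In bulk RNA, fewer cells that express a gene and less RNA per cell cannot be told apart.

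In control SYAT cells Trp53 and Ccng1 had the highest levels per length and Sesn1 the lowest. On the scale of CPM per kilobase of exon, where the library's total was corrected by its TMM factor, Trp53 was at 122 ± 8.5 (SD, n = 2, as for all levels here) and Ccng1, a cyclin G that recruits a phosphatase to Mdm2, at 118 ± 14.3. These neighbours did not differ beyond their spread. Bax, the pore-forming death effector, was at 73 ± 0.176, and Phlda3, a repressor of Akt signalling, at 58 ± 10.9. Mdm2 was at 45 ± 7.39 and Trp53inp1, a cofactor of p53 and of autophagy, at 41.6 ± 0.793, again within the spread of the pair. Zmat3, an RNA-binding splicing regulator, was at 24.8 ± 0.913 and Bbc3, which encodes the BH3-only protein PUMA, at 17.6 ± 2.75. Cdkn1a, which encodes the cyclin-dependent kinase inhibitor p21, was at 13.3 ± 2.27, lower than Bbc3 by more than the SD of either. Sesn1, a sestrin that restrains mTORC1, was at 2.4 ± 0.0755.

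The order of the 4 tables differed from gene to gene on the same TMM-corrected CPM scale. Cdkn1a ranged from 152 to 210 CPM in the 8 sorted G1 libraries, from 38.1 to 63.1 in the 10 unsorted SYAT libraries, from 17.9 to 24.9 in the 4 CGR8 libraries and from 10.3 to 16.9 in the 8 wtSRCAP and cdSRCAP libraries. The ranges of the 4 tables did not overlap. For Mdm2, Trp53inp1 and Zmat3 too, the lowest sorted library (348, 376 and 355 CPM) lay above the highest library of all other tables (289, 319 and 296 CPM). Trp53 took no part in this, with 297 to 433 CPM in sorted cells and 469 to 646 in unsorted SYAT cells. The ratio of the sorted to the unsorted SYAT median was 3.59 for Cdkn1a, 1.91 for Mdm2, 1.84 for Trp53inp1, 1.65 for Bbc3, 0.783 for Bax and 0.74 for Trp53. The share of all genes that separate between the tables in this way was not counted, so the separation is not shown to be particular to these genes. The tables were normalized separately and were tested only within a table. Cell cycle phase, Hoechst staining, sorting, added constructs, stem cell state as read by the markers above and library batch cannot be told apart between them.

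**Figure D1:**
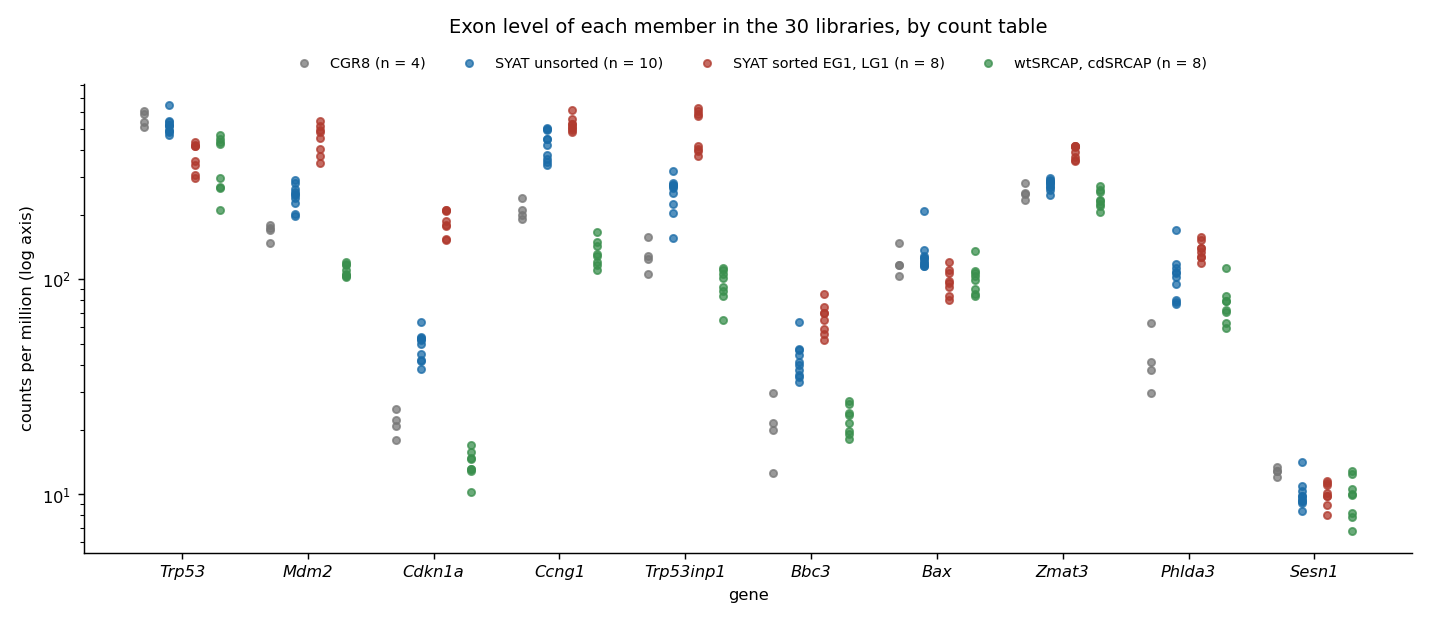
Exon level of the 10 genes in CPM (logarithmic vertical axis), 1 point per library, coloured by count table. The 8 sorted G1 libraries lie highest for Mdm2, Cdkn1a, Trp53inp1 and Zmat3 (for Cdkn1a 152 to 210 CPM), and not for Trp53, Bax or Sesn1.

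To ask whether loss of SRCAP was followed by other levels of p53 and its targets, the SYAT time course was compared with its controls. After 2 h of IAA 0 of 10 genes passed an adjusted p under 0.05 with an absolute log2 fold change over 0.5 in edgeR, where 0% of the 19205 tested genes did. The counts at 4, 6 and 8 h were also 0 of 10, beside 0%, 0.0677% and 0.00521% of all genes. DESeq2 called none of the 10 at any time, beside 0.0469%, 0.963%, 3.33% and 2.41% of all genes. At an unadjusted p under 0.05 the counts were 0, 0, 2 and 0 of 10, beside 3.92%, 9.09%, 16.1% and 13.6% of all genes. Both at 6 h were higher, as were 7.93% of all genes. The median log2 fold change of the 10 genes was 0.15, 0.01, 0.18 and 0.09, beside 0.00, 0.02, 0.01 and 0.03 over all genes tested. All 4 comparisons share the same control libraries.

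Trp53 itself was followed first. Its normalized exon counts, here counts scaled to a common library size within the table, were 9581 and 10570 in the controls, 10040 and 10630 at 2 h, 9847 and 10680 at 4 h, 9951 and 13200 at 6 h, and 11130 and 11000 at 8 h. The groups overlapped at 6 h, and the high value there was that of the library with few mitochondrial counts. At 8 h both libraries lay above both controls, by 0.14 on the log2 scale with a 95% interval of -0.19 to 0.46.

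Mdm2, the negative regulator in the feedback loop, overlapped its controls at all times. Its counts were 5217 and 4131 in the controls, 5742 and 4881 at 2 h, 5059 and 4017 at 4 h, 5388 and 5051 at 6 h, and 5913 and 4609 at 8 h. The log2 fold changes were 0.18, -0.04, 0.16 and 0.17, and their intervals reached no lower than -0.44 and no higher than 0.58. Replicate 1 exceeded replicate 2 in all 5 groups.

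Among the arrest genes, Cdkn1a had 1083 and 849.9 counts in the controls, 1290 and 1023 at 2 h, 1088 and 779.5 at 4 h, 1062 and 916 at 6 h, and 1106 and 862.3 at 8 h. The 2 h mean was the highest, with 1 of its libraries inside the range of the controls, and the log2 fold change was 0.26 (-0.22 to 0.74). It was -0.05, 0.03 and 0.03 at 4, 6 and 8 h, with intervals within -0.53 to 0.51. Ccng1 had 9196 and 7747 counts in the controls, 10280 and 8558 at 2 h, 10190 and 7375 at 4 h, 9141 and 6977 at 6 h, and 10060 and 7152 at 8 h. The groups overlapped at each time, and its changes lay between -0.07 and 0.15.

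Of the 10 genes, Bax, of the apoptosis group, was the one with both treated libraries above both controls at more than 1 time. It had 2356 and 2348 counts in the controls, 2549 and 2614 at 2 h, 2566 and 2501 at 4 h, 2416 and 4259 at 6 h, and 2808 and 2433 at 8 h. They lay above both controls at all 4 times, and the share of all genes that did so at all 4 was not counted. The controls nearly coincided, and the log2 fold change of Bax was 0.13, 0.11, 0.50 and 0.16. At 6 h the interval was 0.02 to 0.98 with adjusted p = 0.29 by edgeR, and without replicate 2 of 6 h the change was 0.04. Bbc3 had 848.1 and 679.4 counts in the controls, 965.9 and 961.3 at 2 h, 814.9 and 718.7 at 4 h, 771.9 and 1294 at 6 h, and 907.2 and 731.4 at 8 h. Its change at 6 h was 0.44 (-0.08 to 0.95), or 0.02 without replicate 2. Only its 2 h libraries were clear of the controls, by 0.34 (-0.18 to 0.85). Beside this, 18.6% of all genes had both 2 h libraries above both controls, as had 3 of the 10 (Trp53inp1, Bbc3 and Bax), and 21.7%, 21.5% and 20.9% did at 4, 6 and 8 h, as had 1, 2 and 2 of the 10.

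Phlda3 had 2094 and 1602 counts in the controls and 2308 and 1946 at 2 h, 2188 and 1570 at 4 h, 2216 and 3448 at 6 h, and 2406 and 1644 at 8 h. At 6 h the log2 fold change was 0.62 (0.03 to 1.20) with adjusted p = 0.288 by edgeR. Without replicate 2 of 6 h, the library with few mitochondrial counts, the change of Phlda3 was 0.27 and the median of the 10 genes 0.03.

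Trp53inp1 was instead low in that library. Its counts were 5583 and 5435 in the controls, 6518 and 5697 at 2 h, 5626 and 4564 at 4 h, 5164 and 3191 at 6 h, and 5610 and 4152 at 8 h. Both 6 h libraries were below both controls, where 22.2% of all genes were, and the change was -0.40 (-0.90 to 0.10), or -0.09 without replicate 2. Zmat3 was the most tightly measured gene, with every library between 5028 and 6043 counts. Its changes were -0.00, -0.03, -0.06 and -0.10, and no interval was wider than 0.274 on either side. Sesn1 had 191.3 and 200 counts in the controls and 171.6 to 288.6 across the treated libraries, the highest being replicate 2 of 6 h.

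**Figure D2:**
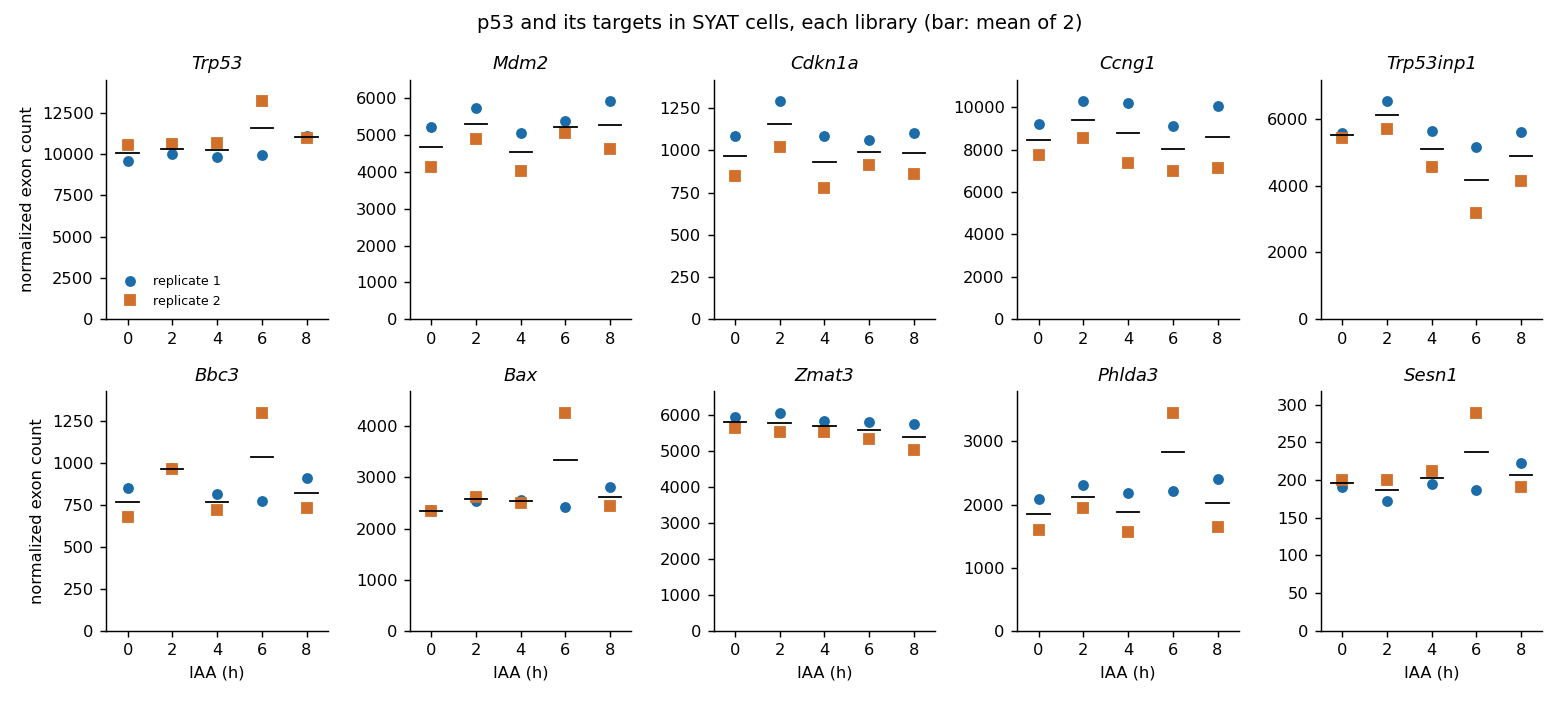
Normalized exon counts (vertical axes from 0) of the 10 genes in SYAT cells against hours of IAA, with circles for replicate 1, squares for replicate 2 and a bar at the mean. Replicate 2 at 6 h stands apart for Bax (4259), Bbc3 (1294), Phlda3 (3448) and Trp53inp1 (3191), while the other groups of most genes overlap.

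The replicates were also set against the conditions. At 2, 4, 6 and 8 h, 8, 9, 10 and 10 of the 10 genes had a smaller difference between conditions than between the replicates of at least 1 of the groups compared. A difference of means is here set against the larger of 2 differences between single libraries, which favours the replicates wherever changes are small. The share of all genes for which this holds was not counted. Mdm2, Cdkn1a, Ccng1, Trp53inp1 and Zmat3 were higher in replicate 1 than in replicate 2 in all 5 SYAT groups, as were 12.4% of all genes. They were also higher in all 4 sorted groups, as were 27.4% of all genes. Trp53 was lower in replicate 1 in all 4 sorted groups, as were 28.2% of all genes. It was also lower there in all 4 wtSRCAP and cdSRCAP groups, as were 23.4%, by a median of 0.73 on the log2 scale.

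Some of the genes tracked each other from library to library. The 10 SYAT libraries share depth and replicate differences. Over them, the highest Pearson's r of the log2 counts among 45 pairs was 0.895, for Mdm2 with Cdkn1a and Bax with Sesn1. The lowest was -0.816, for Trp53 and Trp53inp1, and the median pair had 0.369. Bax, Sesn1 and Trp53 had their highest counts in replicate 2 of 6 h (4259, 288.6 and 13200), and r without that library was not computed. Of 6166 genes with a mean of at least 500 counts, the ones most like Mdm2 were Ddit4 (0.954), Rxylt1 (0.921) and Jun (0.912). Those most like Cdkn1a were Traf4 (0.94), Tnfrsf10b (0.936) and Aqr (0.927).

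CGR8 cells lack the degron and OsTir1, so IAA there acts without degrading SRCAP. The methods name auxinole for the SYAT, wtSRCAP and cdSRCAP controls and not for CGR8, so its removal is not measured there. In edgeR 0 of 10 genes were called after 4 h, beside 0.00988% of 20250 genes, and DESeq2 called none, beside 0.691%. At an unadjusted p under 0.05, 2 of 10 were found, both lower, beside 4.12% of all genes lower and 9.16% in either direction. The median log2 fold change of the 10 was -0.14 and that of all genes was -0.00. In 6 of the 10 genes (Mdm2, Cdkn1a, Bbc3, Zmat3, Phlda3 and Sesn1) both IAA libraries lay below both controls, as in 20.6% of all genes, and in Ccng1 both lay above, as in 21.6%.

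Bbc3 had 1561 and 1127 counts in CGR8 controls and 1053 and 665.3 with IAA. Both IAA libraries were below both controls, though the controls themselves were far apart, and the log2 fold change was -0.65 (-1.22 to -0.07, adjusted p = 0.54 by edgeR). Phlda3 had 3303 and 2189 counts in controls and 1998 and 1563 with IAA, a change of -0.62 (-1.12 to -0.13, adjusted p = 0.54 by edgeR). Without control replicate 2 edgeR called both genes, beside 10.9% of all genes, and without control replicate 1 it called neither, beside 0.734%. Over the fits without 1 library Bbc3 lay between -0.996 and -0.345 and Phlda3 between -0.89 and -0.29. Control replicate 1 had 0.575% mitochondrial counts and 8.54% of its counts in 1 identifier, against 1.06% and 4.64% in control replicate 2.

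Cdkn1a had 1313 and 1170 counts in CGR8 controls and 1093 and 944.3 with IAA, lower in both, with a log2 fold change of -0.29 (-0.67 to 0.09). Mdm2 had 9112 and 9381 against 7801 and 8964, and its change was -0.14 (-0.44 to 0.16). Ccng1 was the exception in direction, with 10000 and 10560 in controls and 11000 and 12640 with IAA (0.20, -0.10 to 0.50). Trp53 overlapped, at 32010 and 28290 against 30770 and 26850 counts.

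Of the other genes in CGR8, Bax had 7749 and 6108 counts in controls and 6149 and 5470 with IAA (-0.25, -0.61 to 0.10), an overlap by 1 library. Zmat3 had 13340 and 14790 against 13160 and 12310 (-0.14, -0.44 to 0.15) and Sesn1 708.4 and 681.7 against 672.1 and 638.1 (-0.09, -0.48 to 0.31), both lower in each IAA library, with intervals that include 0. Trp53inp1 had 5599 and 6780 in controls and 6542 and 8338 with IAA, overlapping groups with a positive estimate like that of Ccng1 (0.27, -0.11 to 0.64).

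**Figure D3:**
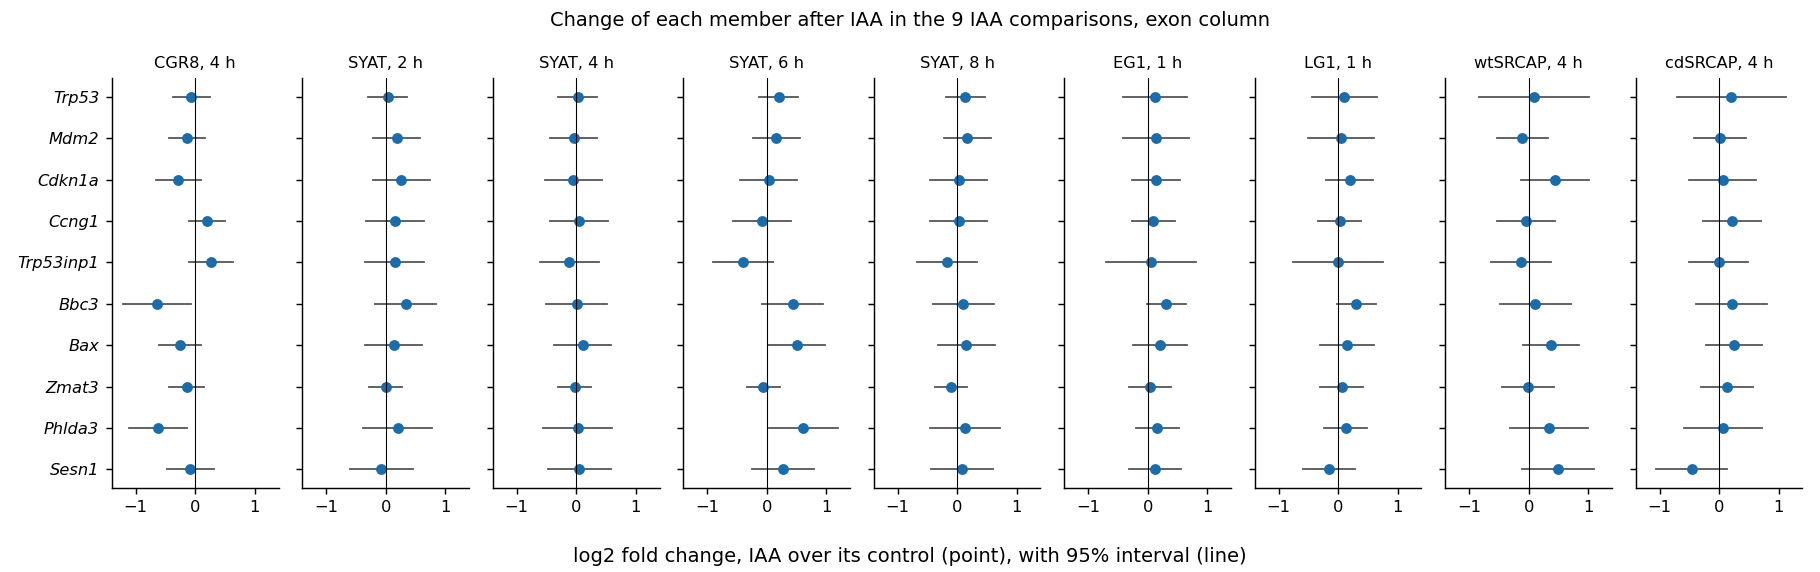
Log2 fold change of each gene after IAA over its own control (points) with the 95% interval (lines), 1 panel for each of the 9 IAA comparisons. Most intervals cross 0, and those that do not are Bbc3 and Phlda3 in CGR8 (-0.65 and -0.62) and Bax and Phlda3 at 6 h in SYAT (0.50 and 0.62).

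In the sorted cells, the question was whether 1 h of IAA has a different effect in early and late G1. A gene was called after IAA there at an unadjusted p under 0.05 with an absolute log2 fold change over 0.25, the threshold of the study. In edgeR 0 of 10 genes were called in EG1, beside 1.22% of 21020 genes, and 0 of 10 in LG1, beside 1.02%. DESeq2 also called none in either phase, beside 0.633% and 0.366%. With the replicate number as a block, which pairs the libraries of this table, edgeR called 1 of 10 in each phase, Bbc3, beside 6.04% of all genes in EG1 and 4.2% in LG1. Without the block none of the 10 had an unadjusted p under 0.05, beside the same 1.22% and 1.02% of all genes. All 10 estimates were above 0 in EG1 and 8 in LG1, with medians of 0.13 and 0.08, beside 0.00 and 0.01 over all genes.

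Bbc3 came nearest to the threshold in both phases. It had 1188 and 1271 counts in EG1 controls and 1583 and 1478 with IAA, and 1344 and 1583 in LG1 controls and 1686 and 1937 with IAA. Both IAA libraries lay above both controls of their phase, which 7.98% of all genes did in EG1 and 7.83% in LG1. The log2 fold change was 0.32 (-0.01 to 0.64) in EG1 and 0.31 (-0.02 to 0.64) in LG1, and the adjusted p by edgeR was 1 in both. With the block the changes were 0.32 and 0.31, past the threshold of the sorted cells, with adjusted p of 0.272 and 0.279 by edgeR. The phases differed in this response by -0.01 (-0.47 to 0.46).

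Cdkn1a had 4025 and 3470 counts in EG1 controls, 4762 and 3516 in EG1 with IAA, 4269 and 4070 in LG1 controls and 4789 and 4732 in LG1 with IAA. The LG1 libraries with IAA were above both of their controls, by 0.19 (-0.21 to 0.59), and the EG1 groups overlapped (0.14, -0.26 to 0.54). Mdm2 had 11070 and 7935 counts in EG1 controls, 12430 and 8571 in EG1 with IAA, 11710 and 9159 in LG1 controls and 11230 and 10370 in LG1 with IAA. Its replicates were far apart, and its changes were 0.14 (-0.41 to 0.70) and 0.05 (-0.51 to 0.61).

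Trp53 had 6773 and 9448 counts in EG1 controls, 8057 and 9573 in EG1 with IAA, 6939 and 9455 in LG1 controls and 7774 and 9861 in LG1 with IAA. Its replicates differed more than any of its conditions. Bax followed the same layout, with 1829 and 2243, 2179 and 2503, 1906 and 2431, and 2097 and 2722 counts in the same order of groups. The IAA changes of Ccng1, Zmat3 and Phlda3 lay between 0.02 and 0.16 in both phases, and those of Sesn1 were 0.13 in EG1 and -0.16 in LG1, with groups that overlapped in EG1 and in LG1.

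Late G1 was set against early G1 in the controls, since p21 is a brake on the passage from G1 to S phase. Here the threshold was that of the unsorted cells, an adjusted p under 0.05 with an absolute log2 fold change over 0.5. DESeq2 called 0 of 10 genes, beside 0.00476% of all genes. In edgeR 0 of 10 were called, beside 0%, and none had an unadjusted p under 0.05, beside 1.44%. The highest estimate was that of Bbc3, 0.25 (-0.08 to 0.58), followed by Cdkn1a at 0.15 (-0.25 to 0.56). Both had their LG1 control libraries above both EG1 control libraries, as had 10.7% of all genes. Trp53inp1 had the widest intervals of the sorted cells, with 13810 and 8560 counts in EG1 controls and 13370 and 9228 in LG1 controls. For the difference between the LG1 and EG1 responses, called at an adjusted p under 0.05, edgeR and DESeq2 called 0 of 10, beside 0% of all genes, and none had an unadjusted p under 0.05, beside 0.699%.

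With wtSRCAP or cdSRCAP expressed, IAA removed the tagged endogenous SRCAP while the induced protein remained. In edgeR 0 of 10 genes were called after IAA in wtSRCAP cells, beside 0.00523% of 19111 genes, and 0 of 10 in cdSRCAP cells, beside 0%. DESeq2 called none in either, beside 0.188% and 0.105% of all genes. In edgeR none had an unadjusted p under 0.05, beside 7.4% and 5.64% of all genes. The medians were 0.10 in both, beside -0.02 and 0.02 over all genes.

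In wtSRCAP cells Cdkn1a had 236.8 and 189.5 counts in controls and 310.2 and 271.1 with IAA, a log2 fold change of 0.45 (-0.12 to 1.02, adjusted p = 0.743 by edgeR). Bax had 1564 and 1911 in controls and 2501 and 2010 with IAA (0.38, -0.10 to 0.85). These and Sesn1 were above both controls, as were 14.9% of all genes. Replicate 1 with IAA was the library with 23.9% of its counts in 1 identifier, and without it the changes were 0.37 for Cdkn1a, 0.23 for Bax and 0.56 for Sesn1. In cdSRCAP cells Cdkn1a overlapped, with 268.5 and 242 counts in controls and 243.2 and 288.5 with IAA (0.06, -0.50 to 0.63), and Bax had 1542 and 1665 against 1835 and 1970 (0.25, -0.23 to 0.72). The responses of the clones differed for Cdkn1a by -0.39 (-1.19 to 0.42).

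Trp53 had the widest intervals after IAA here in the fit without a block. It had 4911 and 7812 counts in wtSRCAP controls, 4947 and 8584 with IAA, 3859 and 7964 in cdSRCAP controls and 5445 and 8210 with IAA. Replicate 2 was far above replicate 1 in each group, and the intervals include this replicate difference. The changes were 0.09 (-0.83 to 1.01) and 0.21 (-0.71 to 1.12). Mdm2 had 2152 and 1928 counts in wtSRCAP controls and 1906 and 1883 with IAA (-0.11, -0.54 to 0.33), and 2212 and 1956 against 2176 and 2026 in cdSRCAP cells (0.01, -0.42 to 0.44). Ccng1, Trp53inp1, Bbc3, Zmat3 and Phlda3 had changes between -0.13 and 0.34 in wtSRCAP and between -0.01 and 0.22 in cdSRCAP cells.

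Sesn1 gave the largest estimates of this table. It had 123.8 and 144.4 counts in wtSRCAP controls, 182.9 and 194.1 in wtSRCAP with IAA, 228.4 and 237 in cdSRCAP controls and 150.9 and 186.3 in cdSRCAP with IAA. The 4 groups were ordered without overlap between control and IAA in each clone, upward in wtSRCAP and downward in cdSRCAP, where 19% of all genes had both IAA libraries below both controls. The cdSRCAP controls exceeded the wtSRCAP controls by 0.79 (0.20 to 1.39, adjusted p = 1 by edgeR). The log2 fold change with IAA was 0.49 (-0.11 to 1.09) in wtSRCAP and -0.46 (-1.05 to 0.13) in cdSRCAP, and the responses differed by -0.95 (-1.80 to -0.11, adjusted p = 1 by edgeR). Sesn1 is the least abundant of the 10 genes, and in the intron columns the responses differed by -0.17 (-0.89 to 0.55) and the controls by 0.68 (0.17 to 1.19).

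Between the clones, DESeq2 called 0 of 10 genes in the controls and 0 of 10 after IAA, beside 0.12% and 0.0419% of all genes. In edgeR 0 of 10 were called in the controls, beside 0%, and 0 of 10 after IAA, beside 0.00523%. At an unadjusted p under 0.05 the counts were 1 (Sesn1) and 0, beside 3.82% and 5.03% of all genes. In controls, Cdkn1a, Trp53inp1, Zmat3 and Sesn1 had both cdSRCAP libraries above both wtSRCAP libraries, as had 15.7% of all genes. With IAA, Mdm2, Ccng1, Trp53inp1 and Zmat3 did, as had 19.1%. Trp53inp1 had 1541 and 1619 counts in wtSRCAP controls and 2020 and 1942 in cdSRCAP controls (0.33, -0.18 to 0.83). With 1 clone of each kind, the protein expressed and the clone cannot be told apart. The summed stem cell markers also differed, at 3040 to 3980 CPM in cdSRCAP controls and 2530 to 2820 in wtSRCAP controls. Those of other cell types, a sum led by Pecam1, overlapped (80.2 to 97.8 and 74.4 to 114 CPM), and the part of either in these values was not tested. For the difference between the responses edgeR and DESeq2 called 0 of 10 genes, beside 0% of all genes, with 1 (Sesn1) at an unadjusted p under 0.05, beside 0.785%.

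**Figure D4:**
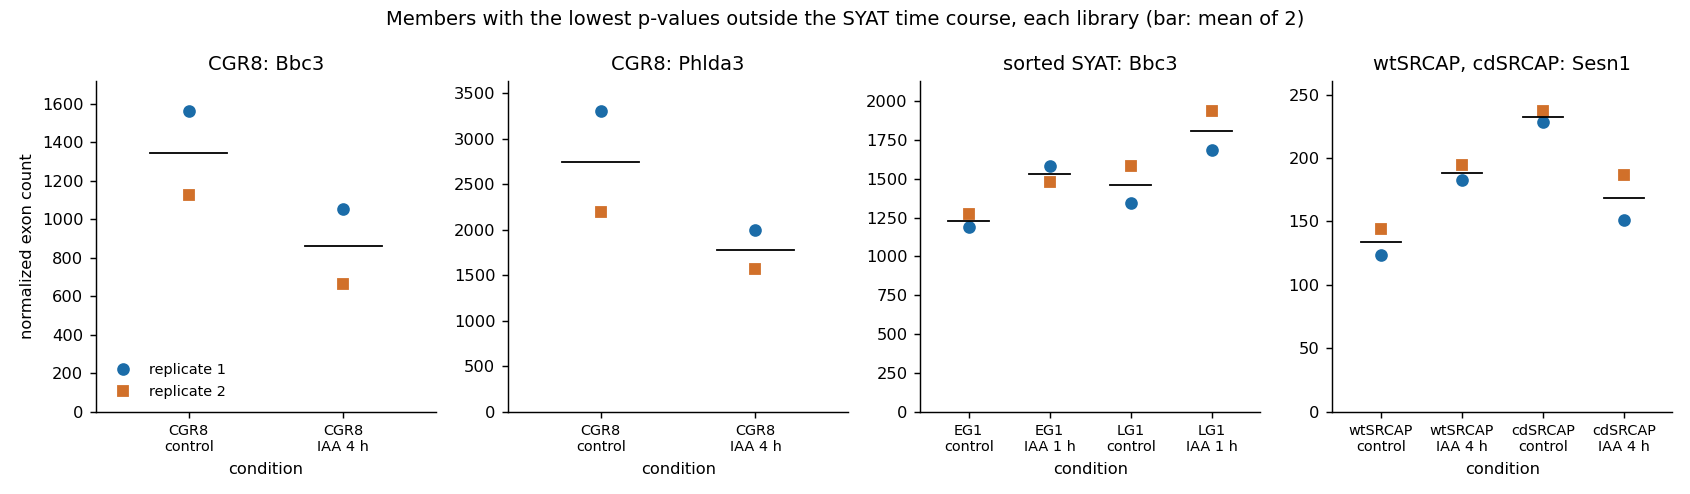
Normalized exon counts (vertical axes from 0) of Bbc3 and Phlda3 in CGR8, Bbc3 in sorted EG1 and LG1 cells and Sesn1 in wtSRCAP and cdSRCAP cells, with circles for replicate 1, squares for replicate 2 and a bar at the mean. Bbc3 is higher with IAA in both phases (1583 and 1478 in EG1, 1686 and 1937 in LG1), and Sesn1 is highest in the cdSRCAP controls (228.4 and 237).

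The intron columns are described as reads of the gene body outside exons, which can report unspliced RNA, but they were not alike across libraries. Of the genes whose annotated exons fill the whole gene (GENCODE vM21), with at least 100 exon counts, 41.1% had counts in the intron columns of SYAT and 42.3% in those of EG1, against at most 0.0879% in the LG1, CGR8, wtSRCAP and cdSRCAP libraries. The intron columns of SYAT and EG1 therefore do not hold reads outside exons alone, and their values are not a measure of unspliced RNA alone. For 8 of the 10 genes the intron count was 1.01 to 1.36 times the exon count in the SYAT libraries and 1.04 to 1.42 times in EG1. It was 0.0569 to 0.416 times in LG1, 0.0203 to 0.249 times in CGR8 and 0.00933 to 0.448 times in the wtSRCAP and cdSRCAP libraries. Ccng1 had 1.01 to 1.03 and Phlda3 1.01 to 1.03 intron counts per exon count in SYAT, against at most 0.0767 for either in LG1. Bax was listed at 0 in every intron column of CGR8, LG1, wtSRCAP and cdSRCAP, and at 0.708 to 0.803 times its exon count in SYAT. The same step was seen in the totals of the whole table, which were 1.11 to 1.23 times the exon totals in EG1 and 0.185 to 0.358 times in LG1.

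With the intron columns, and the threshold of the unsorted cells, Trp53, Ccng1, Trp53inp1, Bax, Zmat3 and Phlda3 were called lower in LG1 than in EG1 controls by edgeR, beside 59% of 17441 genes called in either direction. The intron totals differ between these groups by the step given above, and with the exon columns none of the 10 was called. In every other comparison edgeR called 0 of the tested genes with the intron columns, 10 in SYAT and sorted cells and 9 in CGR8, wtSRCAP and cdSRCAP cells, where Bax was not tested. Beside this stood 0.022% of all genes in CGR8, 0%, 0%, 0.0136% and 0.00679% at the 4 times in SYAT, 2.28% in EG1, 3.94% in LG1, 0.299% in wtSRCAP and 0.236% in cdSRCAP after IAA, 0.102% and 0.0157% between the clones without and with IAA, and 0% for both differences between responses. DESeq2 was not run on these columns. Cdkn1a had an intron change of -1.08 in CGR8 (adjusted p = 0.916 by edgeR).

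Other genes of the pathway were taken from 4 lists: 24 regulators and partners of p53, and 15, 13 and 13 further targets in arrest and growth, in apoptosis, and in repair and metabolism. In edgeR 0 of the 63 tested genes were called in every exon comparison of CGR8, SYAT and sorted cells, and 0 of 62 in wtSRCAP and cdSRCAP cells. These counts moved with the libraries used: edgeR called 16 of 63 at 6 h in SYAT without 6 h replicate 1, beside 15.4% of all genes, and 13 of 63 in CGR8 without control replicate 2, beside 10.9%. In the SYAT time course 5, 5, 11 and 8 of the 63 had an unadjusted p under 0.05 at 2, 4, 6 and 8 h, beside 3.92%, 9.09%, 16.1% and 13.6% of all genes. DESeq2 called 0, 1, 6 and 2 of them at these times, beside 0.0469%, 0.963%, 3.33% and 2.41% of all genes, 1 in CGR8 (Rps27l), beside 0.691%, and 0 in the other comparisons. The median log2 fold changes in time order were 0.07, 0.05, -0.01 and 0.04 for the regulators, 0.16, 0.08, 0.12 and 0.10 for arrest and growth, 0.09, 0.16, 0.13 and 0.14 for apoptosis, and 0.10, 0.03, 0.11 and 0.08 for repair and metabolism.

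Gadd45a, a stress sensor that acts on kinase signalling and repair, had 312.4 and 298.8 counts in SYAT controls, 453.4 and 443.1 at 2 h, 538.5 and 527.7 at 4 h, 564.4 and 515.7 at 6 h, and 590.1 and 455.1 at 8 h. Every treated library was above both controls. At single times 18.6%, 21.7%, 21.5% and 20.9% of all genes had both libraries above both controls, and the share at all 4 times was not counted. The log2 fold changes were 0.55, 0.80, 0.82 and 0.77, and the adjusted p by edgeR was 0.964, 0.183, 0.0724 and 0.0972. Plk3, a polo-like kinase of the stress response, had 433.4 and 519.9 counts in controls, 681.8 and 854.9 at 2 h, 741.1 and 788.9 at 4 h, 771.9 and 902.2 at 6 h, and 747.2 and 909.4 at 8 h. Its changes were 0.69, 0.68, 0.81 and 0.80, with adjusted p of 0.877, 0.248, 0.0849 and 0.101 by edgeR. Both genes are known to answer stress also without p53. DESeq2 called Gadd45a at 4, 6 and 8 h and Plk3 at 6 and 8 h, and beside them Kat5, Epha2, Atr and Sertad1 at 6 h.

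Kat5, the acetyltransferase Tip60 that modifies p53, had 693 and 747.8 counts in SYAT controls, 581.5 and 558.3 at 2 h, 480.1 and 524.2 at 4 h, 505.1 and 404 at 6 h, and 487.1 and 544.1 at 8 h. All treated libraries were below both controls. At 6 h alone 22.2% of all genes had both libraries below, and the share at all times together was not counted. The changes at 4, 6 and 8 h were -0.52, -0.66 and -0.48 with adjusted p of 0.33, 0.104 and 0.229 by edgeR. Kat5 was also lower after IAA in wtSRCAP cells (597.5 and 626 against 380.1 and 422.8 counts) and in cdSRCAP cells (639.5 and 643.4 against 355.7 and 399), by -0.61 and -0.77, with adjusted p of 0.644 and 0.722 by edgeR.

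Epha2, a receptor tyrosine kinase, had 5454 and 4629 counts in SYAT controls, 7421 and 6978 at 2 h, 8598 and 6331 at 4 h, 7324 and 8664 at 6 h, and 7195 and 5645 at 8 h. The changes at 2, 4 and 6 h were 0.51, 0.57 and 0.67 with adjusted p of 1, 0.348 and 0.132 by edgeR. In CGR8, which has no degron, it was higher after IAA as well, by 0.38 (adjusted p = 0.54 by edgeR). Trp73, the p53 relative p73, had counts in the intron columns of 169.3 and 202.8 in SYAT controls and 398.5 and 452.1 at 2 h, 407.5 and 496.1 at 4 h, 494.9 and 625.9 at 6 h, and 527.3 and 688.9 at 8 h. In these SYAT columns, which hold exon reads too, the changes were 1.19, 1.28, 1.59 and 1.71 with adjusted p of 0.529, 0.218, 0.107 and 0.121 by edgeR, whereas the exon changes were at most 0.41. The summed markers of other cell types were 95.6 to 111 CPM in SYAT controls and 104 to 132 in the treated groups. Pecam1 was the highest of them by median (35.3 CPM), and Elf5 was at 0 in 1 of the 10 libraries. The part of these markers in the values was not tested.

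**Figure D5:**
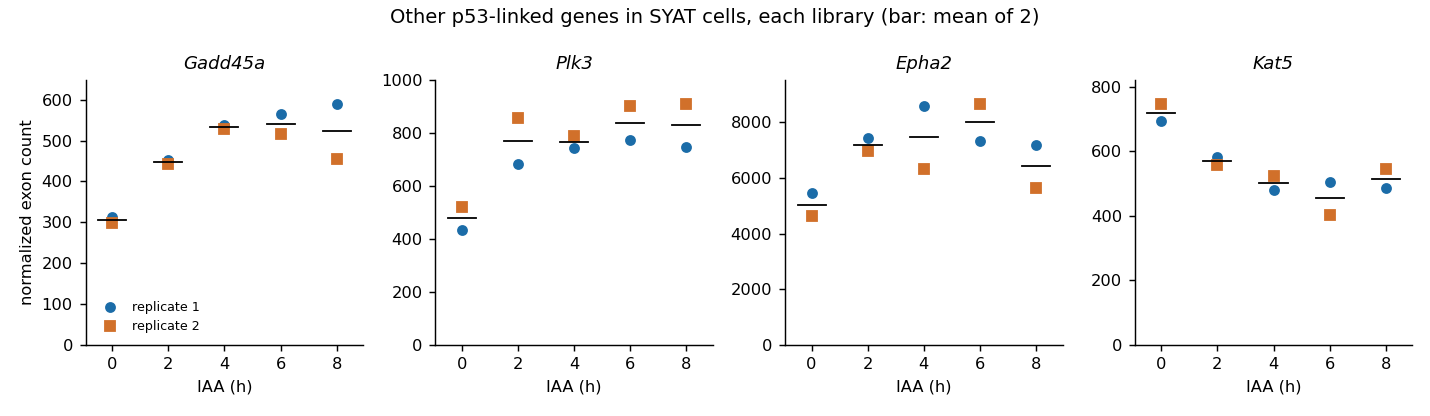
Normalized exon counts (vertical axes from 0) of Gadd45a, Plk3, Epha2 and Kat5 in SYAT cells against hours of IAA, with circles for replicate 1, squares for replicate 2 and a bar at the mean; the 4 genes were picked after their values were seen. Treated libraries of Gadd45a and Plk3 lie above both controls (433.4 and 519.9 for Plk3), and those of Kat5 below both (693 and 747.8).

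In CGR8 the list genes with the lowest p-values were Rps27l, a small ribosomal protein and p53 target, at 0.94 and Gdf15, a stress cytokine, at -1.36. Neither was called by edgeR, and DESeq2 called Rps27l. Ppm1d, the phosphatase Wip1 that reverses p53 signalling, was at -0.49, and Atr, a kinase that activates p53, at 0.50 in CGR8 and -0.62 at 6 h in SYAT. In all, 9 of the 63 list genes had an unadjusted p under 0.05 in CGR8, beside 9.16% of all genes. None did in EG1 and LG1 after IAA, beside 1.22% and 1.02%, and 1 did between the LG1 and EG1 controls (Epha2, 0.46), beside 1.44%. With the replicate block edgeR called 2 of the 63 in EG1 (Trp53cor1 and Pvt1), 2 in LG1 (Kat5 and Wrap53) and 1 between the controls (Trp53cor1), beside 6.04%, 4.2% and 0.723% of all genes.

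In wtSRCAP cells 7 of the 62 list genes had an unadjusted p under 0.05 after IAA, beside 7.4% of all genes, the lowest p-values being those of Gdf15 (-2.07), Epha2 (0.65) and Kat5, and in cdSRCAP cells 2 had, beside 5.64%, Kat5 and the desmosomal gene Perp (0.70). Eda2r, a receptor of the tumour necrosis factor family, was higher in cdSRCAP than in wtSRCAP cells without IAA (0.69) and with IAA (0.99). Over the fits without 1 library its value with IAA lay between 0.601 and 1.425. Trp73 (0.80) and the repair factor Ddb2 (1.17) were the other list genes with the lowest p-values between the clones after IAA. The response of Gdf15 differed by 1.93 between the clones, at mean counts of 61.2 in wtSRCAP controls and 14.2 with IAA. None of these was called by DESeq2, or by edgeR without a block. With the replicate block edgeR called Trp53bp2, Gdf15 and Epha2 in wtSRCAP cells after IAA, Kat5 and Ei24 in cdSRCAP cells after IAA, and Eda2r between the clones after IAA, beside 3.2%, 1.81% and 1.41% of all genes, and none of the 10 members in this table.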

How the data were processed

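Nuclear RNA was sequenced in paired-end, directional libraries. The authors aligned reads with STAR to mm10 and counted them with featureCounts on exons and introns of GENCODE vM25; the strand setting is not given in the sources used here. Per the submitters' notes SAMtools 1.10 and Picard were also used. The deposited values are raw counts per gene, exon and intron columns apart. The deposited tables of fold changes and p-values from the authors' own comparisons were not used.

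The 10 genes and 4 lists were chosen with earlier results of these data known. Counts were tested with edgeR 4.0.16 in R 4.3.3 (quasi-likelihood, TMM, filterByExpr with a minimum count of 10 and total of 15), over all groups of a table, with Benjamini-Hochberg adjustment over all genes and no comparison between tables. The study's thresholds were used: an absolute log2 fold change over 0.5 with adjusted p under 0.05 (also for LG1 against EG1 controls), and over 0.25 with unadjusted p under 0.05 for IAA in sorted cells. Adjusted p under 0.05 was chosen here for differences between responses. Of the lists, at most 3 genes per comparison with the lowest unadjusted p were named, and the 3 genes most correlated with Mdm2 and with Cdkn1a; other list genes (Atr, Sertad1, Cdkn2a, Epha2 at 4 and 6 h, and those called only under an alternative) were named after their values were seen. Alternatives were DESeq2 1.42.0, its size factors, no filter, a replicate block, the intron columns, only the groups compared and leaving out each replicate. Replicate numbers were taken to pair libraries in the sorted table and the wtSRCAP and cdSRCAP table, where the replicate differences of all group pairs correlated (r of 0.351 to 0.569 and 0.23 to 0.343), and not in CGR8 (0.0661) or SYAT (-0.0395 to 0.572). The intervals given are those of the edgeR fit without a block, so in the paired tables they include replicate differences. The replicates are called biological duplicates, and p-values measure the spread between these samples only. The procedure was tested on simulated data. Genes were matched to GENCODE vM21, where 55141 of 55401 identifiers had an entry.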

Additional observations from a re-analysis of the deposited data

How the results depend on the processing

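With 2 replicates per group, changes of any size within the intervals given are not excluded, and leaving out a library leaves 1 sample whose spread is assumed to be that of the other groups. The count of called members remained 0 under most alternatives. It was 1 (Phlda3) in CGR8 and 1 (Phlda3) at 6 h in SYAT with no filter on low counts, beside 1.26% and 2.47% of all genes, and 1 (Bbc3) in EG1 with DESeq2 size factors, beside 1.15%. With the intron columns it was 6 in LG1 against EG1 controls, beside 59%. Leaving out 1 replicate gave 0 to 2 in CGR8 (Bbc3 and Phlda3 without control replicate 2) and 0 to 4 at 6 h in SYAT (Trp53inp1, Bbc3, Bax and Phlda3 without 6 h replicate 1), beside 10.9% and 15.4% of all genes in those fits. The causes were not tested.

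Fitted with the replicate number as a block, the count was 2 in CGR8 (Bbc3 and Phlda3), 1 in EG1 (Bbc3) and 1 in LG1 (Bbc3), beside 2.47%, 6.04% and 4.2% of all genes, and the block changed no other call of a member. In SYAT and CGR8 the replicate numbers were taken as labels only. The block raised the calls over all genes from 13 to 823 at 6 h and from 1 to 634 at 8 h in SYAT, and from 2 to 500 in CGR8. DESeq2 called 185, 639 and 463 genes at 4, 6 and 8 h, where edgeR called 0, 13 and 1. With no filter edgeR called 885 at 6 h. Of the list genes, the block called 1, 6 and 2 at 4, 6 and 8 h in SYAT and 3 in CGR8, and no filter called 7 and 1 at 6 and 8 h in SYAT, 2 in CGR8 and 1 in EG1.

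Of the 134 member estimates with an unadjusted p of 0.05 or more, 95 changed sign under at least 1 alternative. Among list genes, chosen with the data seen, the intron columns reversed Rps27l (-0.36), Gdf15 (0.14) and Epha2 (-0.0085) in CGR8 and Epha2 in LG1 against EG1 controls (-0.75), and leaving out 6 h replicate 2 of SYAT reversed Cdkn2a at 6 h (-0.11 to 1.66 over the fits without 1 replicate).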
